A study of Mus musculus with 4 samples.

Results

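Thymocyte-guiding chemokines are described here together with Ackr4, as 8 genes chosen by symbol from the 23560 gene symbols kept after filtering the deposited matrices: Ccl21a, Ccl19, Ccl25, Cxcl12, Ccl17, Ccl22, Cxcl16 and Ackr4. They were measured by droplet single-cell RNA-seq of sorted thymic epithelial cells (TECs; EpCAM+, CD45-, TER119-) from C57BL/6 mice aged 6 weeks. The 4 libraries, each pooled from 3 mice, were wild type given control rat IgG (WT-Control), wild type given a neutralizing antibody to RANKL (WT-RANKL-Ab), and mice without CD40 given the control IgG (Cd40-/- Control) or the same antibody (Cd40-/- RANKL-Ab), and all were collected 2 weeks after injection. The Cd40-/- mice lacked CD40 in every cell, and the antibody acted throughout the animal, so neither was limited to TECs. Because there was 1 library per condition, differences between libraries had no replicate check and no test was made. All intervals below are exact 95% intervals that cover counting error only.

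Developing thymocytes are led through the thymus by chemokines that TECs secrete. CCL25 and CXCL12, ligands of CCR9 and CXCR4, act mainly in the cortex, whereas CCL21 and CCL19, both ligands of CCR7, draw positively selected thymocytes into the medulla. CCL17 and CCL22 are ligands of CCR4, CXCL16 is the ligand of CXCR6, and ACKR4 is an atypical receptor that takes up CCL19, CCL21 and CCL25 without classical signalling. RANK and CD40 are TNF receptor family members on medullary TECs (mTECs) whose signals maintain mature mTECs that express Aire.

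Both members whose level was highest in cortical TEC (cTEC)-like cells, Ccl25 and Cxcl12, held the letters GACGC, the core of the motif bound by the TEC transcription factor FOXN1, in the 250 bases before their start. These promoters are shown because no other matched member held the letters. Sequences are from RefSeq on GRCm38.p6, both genes lie on the + strand, and capitals mark the match.
Ccl25, chr8:4324960-4325209: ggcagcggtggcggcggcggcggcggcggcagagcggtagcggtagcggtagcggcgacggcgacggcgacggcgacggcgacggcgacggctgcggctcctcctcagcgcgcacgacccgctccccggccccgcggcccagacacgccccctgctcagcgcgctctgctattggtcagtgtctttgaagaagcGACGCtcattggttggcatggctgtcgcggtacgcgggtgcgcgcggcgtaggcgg
Cxcl12, chr6:117168285-117168534: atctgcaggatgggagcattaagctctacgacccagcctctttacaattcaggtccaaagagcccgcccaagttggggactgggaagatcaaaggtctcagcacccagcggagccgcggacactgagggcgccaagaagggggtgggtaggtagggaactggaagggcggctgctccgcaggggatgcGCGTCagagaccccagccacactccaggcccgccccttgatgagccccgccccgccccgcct
The match lay 56 to 52 bases before the Ccl25 start on the strand of the gene, and 62 to 58 bases before the Cxcl12 start on the opposite strand, where it reads GCGTC. Of 32851 promoters of this length, 22.6% held GACGC on either strand, so the match is a common feature and is a description only. The kappa B consensus, searched by name on both strands, was in 3.9% of promoters and in none of the 8 promoters found for 7 of the 8 members. Cxcl16 had no promoter in the table, and a second Ccl25 promoter at chr8:4349338-4349587 held neither motif.

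The libraries held 2082 to 10218 cells after filtering, with medians of 6086 to 7621 unique molecular identifiers (UMIs, single captured transcripts) per cell. Pairs of libraries shared 17 to 116 cell barcodes, except that both Cd40-/- libraries shared 205, which were 9.85% of the cells of Cd40-/- RANKL-Ab. In those barcodes the median was 24072 UMIs in that library and 723 in Cd40-/- Control. Leaving them out of Cd40-/- Control ended no call below and moved no member's log2 ratio by more than 0.0199. Cd40 itself stood at 110 and 28.8 CPM (UMIs per 1000000 UMIs) in wild type without and with the antibody, and at 5.75 and 4.75 CPM in Cd40-/- mice.

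Cells were placed in classes by summed marker genes, none of which was a member. The classes compared were basal mTEC-like cells (3214, 3594, 1945 and 867 cells; values follow the order wild type without and with the antibody, then Cd40-/- without and with it, throughout), progenitor-like cells (150, 463, 288 and 305), cTEC-like cells (106, 393, 522 and 265) and Aire mTEC-like cells (3100, 404, 1756 and 9). With 9 cells, the Aire mTEC-like class of Cd40-/- RANKL-Ab was not compared. The genes that led each class other than its gate markers included Ccl21a and Ccl11 in basal mTEC-like cells, Ackr4 and Igfbp3 in progenitor-like cells, Ccl25 and Cxcl12 in cTEC-like cells, and Fgf21 in Aire mTEC-like cells. These classes are ranges of a score, not sharp types: between 26.3% and 36.5% of progenitor-like cells and between 18.8% and 22.6% of cTEC-like cells lay at less than 1.25 times their cut. The median progenitor-like cell held 36.4 basal mTEC marker UMIs per 10000, against a cut of 40 for the basal gate, and 29.8 cTEC marker UMIs per 10000, against a cut of 300. The median cTEC-like cell held 24.6 basal mTEC marker UMIs per 10000. The plot of levels by class shows all 8 members.

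**Figure D1:**
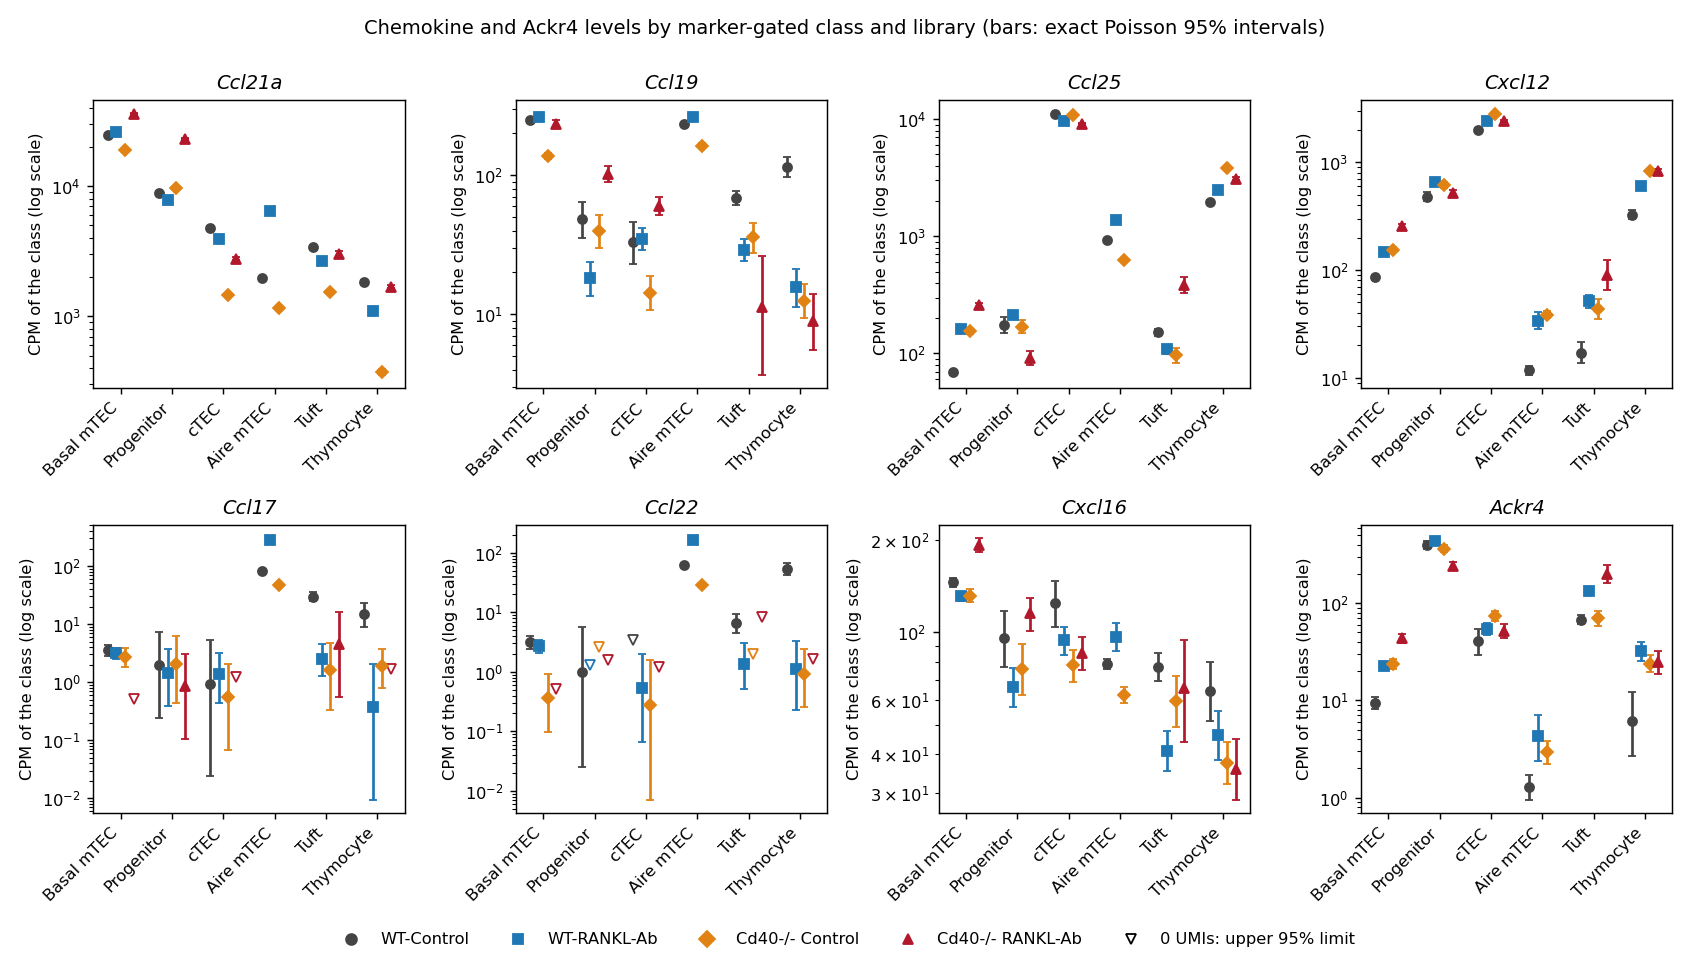
Level of each member (CPM of the class, log scale) in 6 marker-gated classes of each library with at least 50 cells of the class. Points are library values with exact Poisson 95% intervals, and open triangles are the upper limit where no UMI was found. Ccl21a stood highest in basal mTEC-like cells, Ccl25 and Cxcl12 in cTEC-like cells and Ackr4 in progenitor-like cells of all 4 libraries.

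Ccl21a (chr4:42772860-42773993, - strand), the CCR7 ligand that defines CCL21+ mTECs, was measured in basal mTEC-like cells at 24896, 25968, 18994 and 36270 CPM. Cd40-/- RANKL-Ab was the highest and Cd40-/- Control the lowest. In every library this class gave most of the Ccl21a UMIs, between 70.3% and 84.8%. A UMI of Ccl21a was found in 97.1%, 97.2%, 94.4% and 97.9% of basal mTEC-like cells after each cell was thinned to 1000 UMIs (98.6%, 98.4%, 95.6% and 99.3% unthinned). In thymocyte-like cells, a type not known to make CCL21, the thinned shares were 29.5%, 28.2%, 12.2% and 31.6%, at median depths of 7430.5, 2891.5, 2782 and 2109 UMIs per cell. Those shares are used below as a background, but one that is not free of TEC RNA. No cTEC marker UMI was found in 32 of 120, 95 of 330, 139 of 589 and 50 of 244 thymocyte-like cells. In those without one, the thinned Ccl21a shares were 26.6%, 20.1%, 7.53% and 38.0%.

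Progenitor-like cells came next, with Ccl21a at 8943, 7919, 9688 and 23171 CPM, and their range over libraries overlapped that of basal mTEC-like cells. In cTEC-like cells Ccl21a was 4822, 3955, 1472 and 2785 CPM, below every progenitor-like value. Aire mTEC-like cells held 1984, 6428 and 1167 CPM in the 3 libraries with enough cells, so that WT-RANKL-Ab was the highest there. The median Aire mTEC-like cell of at least 1000 UMIs held 2.60, 22.0 and 1.20 Ccl21a UMIs per 10000, and 14.5%, 51.1% and 10.3% of them held at least 20. Of these cells, 23.7%, 59.9% and 22.0% also passed another TEC gate, and the part of that overlap in the Ccl21a level was measured only by leaving those cells out (below).

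Ccl19 (chr4:42754525-42756577, - strand), the other CCR7 ligand, was 249, 260, 138 and 235 CPM in basal mTEC-like cells and 233, 261 and 163 CPM in Aire mTEC-like cells. The ranges of these classes overlapped, and Cd40-/- Control was the lowest in both. In progenitor-like cells it was 48.2, 18.2, 39.8 and 102 CPM, resting on 48, 51, 57 and 240 UMIs. In cTEC-like cells it was 32.9, 35.0, 14.3 and 59.9 CPM. Near-identical gene copies surround both CCR7 ligands, so their levels are uncertain to the extent that reads were split: Ccl21a took 99.1% of the UMIs of the annotated Ccl21 copies and Gm21541 took 0.855%.

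Ccl25 (chr8:4325210-4360020, + strand), the CCR9 ligand, stood at 11011, 9574, 10814 and 9154 CPM in cTEC-like cells, with no overlap with any other class apart from thymocyte-cTEC complexes, which were kept out of the ranking. A UMI was found in 94.1%, 97.8%, 98.7% and 98.9% of cTEC-like cells after thinning (98.1%, 99.7%, 99.6% and 99.6% unthinned). Aire mTEC-like cells held 933, 1381 and 626 CPM. That class was so large in WT-Control that it gave 54.4% of the Ccl25 UMIs there, against 17.9% from cTEC-like cells, whereas in Cd40-/- Control cTEC-like cells gave 35.0% and Aire mTEC-like cells 10.4%. Progenitor-like cells held 175, 214, 169 and 91.3 CPM, and Cd40-/- RANKL-Ab was the lowest.

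In basal mTEC-like cells Ccl25 was lower than in cTEC-like cells, and its values differed more between libraries, at 69.1, 161, 154 and 257 CPM. WT-Control was the lowest and Cd40-/- RANKL-Ab the highest. The thinned share of cells with a UMI was 4.15%, 8.86%, 8.39% and 11.6% (16.5%, 26.8%, 25.4% and 35.6% unthinned), below the thymocyte-like share of 25.1%, 30.9%, 44.5% and 28.1% in each library, so the shares are not read as expression or as a difference. Thymocyte-like cells without any cTEC marker UMI gave 11.5%, 2.35%, 9.36% and 10.7%, and the basal mTEC-like share was above that in both antibody libraries and below it in both control libraries. A small number of cells carried much of the signal: 15, 82, 35 and 32 basal mTEC-like cells held at least 20 Ccl25 UMIs per 10000, and these held 39.1%, 48.3%, 48.9% and 57.0% of the Ccl25 UMIs of the class. In the remaining cells Ccl25 was 42.3, 85.1, 80.1 and 115 CPM, in the same order. Thymocyte markers, all 12 of 12 with a UMI, summed to 29.5, 57.5, 45.4 and 68.8 CPM in this class, and their part in the Ccl25 result was measured only by leaving out cells that held one, which ended none of the basal calls.

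Cxcl12 (chr6:117168535-117181367, + strand), the CXCR4 ligand, was 2017, 2428, 2799 and 2417 CPM in cTEC-like cells, without overlap with another class apart from thymocyte-cTEC complexes, which held 2117 and 2078 CPM in the Cd40-/- libraries. WT-Control was the lowest. Progenitor-like cells held 481, 656, 621 and 518 CPM, and the thinned share of them with a UMI was 31.9%, 42.6%, 37.8% and 36.6% (71.3%, 85.5%, 69.8% and 85.6% unthinned), above the 9.81%, 19.4%, 28.8% and 17.6% of thymocyte-like cells. In basal mTEC-like cells Cxcl12 was 85.2, 147, 155 and 256 CPM. WT-Control was the lowest and Cd40-/- RANKL-Ab the highest, as for Ccl25. The thinned share of these cells with a Cxcl12 UMI was 7.30%, 11.2%, 12.1% and 19.9% (30.3%, 39.0%, 36.3% and 63.9% unthinned), below the thymocyte-like share except in Cd40-/- RANKL-Ab. Thymocyte-like cells without any cTEC marker UMI gave 0%, 0.265%, 2.49% and 7.98%, from 24, 69, 72 and 45 cells. The basal mTEC-like share was above that in every library. Aire mTEC-like cells held 11.7, 33.8 and 38.4 CPM. Their thinned share was 0.937%, 3.86% and 2.32% (6.65% to 16.3% unthinned), below the thymocyte-like share in all 3 libraries. Against thymocyte-like cells without any cTEC marker UMI, it was above in both wild-type libraries and below in Cd40-/- Control. Because these backgrounds differ, the Aire mTEC-like share is not read as expression or as a difference. The level in thymocyte-like cells was itself 327, 608, 826 and 826 CPM for Cxcl12 and 6.20, 32.1, 23.9 and 24.7 CPM for Ackr4, lowest in WT-Control for both, and its part in the values of the other classes was not tested.

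Ccl17 (chr8:94810453-94812036, + strand) and Ccl22 (chr8:94745590-94751699, + strand), the CCR4 ligands, had most of their UMIs in Aire mTEC-like cells in the 3 libraries with enough of them. There Ccl17 was 81.6, 283 and 47.7 CPM and Ccl22 was 62.8, 162 and 29.1 CPM, so that both were highest in WT-RANKL-Ab and lowest in Cd40-/- Control. The Ccl17 level of WT-RANKL-Ab came from few cells, since 44 of 404 cells held a UMI and the top 5 cells held 76.9% of the UMIs, against 24.2% in WT-Control. For Ccl22 the top 5 cells held 55.0% in WT-RANKL-Ab and 22.0% in WT-Control. After thinning, 3.65%, 4.93% and 2.45% of Aire mTEC-like cells held a Ccl17 UMI (12.3%, 10.9% and 9.91% unthinned), and 1.53%, 0.0135% and 0.171% of thymocyte-like cells. Among Aire mTEC-like cells with a Ccl17 UMI, 30.1%, 54.5% and 25.4% also held Ccl22, against 9.03%, 5.13% and 6.55% of those without, at median depths of 12637 against 11402, 9631 against 8468 and 11312 against 9729 UMIs. The gate of this class used Aire, Fezf2, Cd80 and Cd86. Myeloid and dendritic markers summed to 658, 287 and 712 CPM in it, against 45.5, 28.8 and 36.7 CPM in basal mTEC-like cells. Myeloid- and dendritic-like cells of WT-Control and Cd40-/- Control held Ccl17 at 65.5 and 173 CPM and Ccl22 at 94.6 and 98.0 CPM. Their part in the Aire mTEC-like values was not tested. By level, Aire mTEC-like cells were not the highest class for Ccl22. Microfold-like cells, a mimetic mTEC class, held it at 96.9, 686 and 48.5 CPM, above the Aire mTEC-like level in each of these 3 libraries. Enterohepatic-like cells, another marker-gated class, were above it in WT-Control (99.7 CPM) but below it after CD40 loss alone (4.02 CPM).

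Over whole libraries Ccl17 gave 4269, 1149, 1457 and 5 UMIs. Ccl22 gave 3473, 1063, 849 and 0 UMIs. In Cd40-/- RANKL-Ab, where 9 Aire mTEC-like cells were left, neither gene had a UMI in the 867 basal mTEC-like cells, which allows a level of up to 0.413 CPM by the 3-count floor and 0.508 CPM by the exact interval.

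Cxcl16 (chr11:70453983-70459984, - strand), the CXCR6 ligand, was highest in microfold-like cells, a mimetic mTEC class, at 214, 318 and 212 CPM in the 3 libraries with enough of them. Basal mTEC-like cells followed without overlap at 145, 131, 131 and 192 CPM. In cTEC-like cells it was 124, 93.9, 77.9 and 85.6 CPM, and in progenitor-like cells 95.4, 66.3, 76.1 and 115 CPM. Aire mTEC-like cells held 78.8, 96.7 and 62.4 CPM.

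Ackr4 (chr9:104084157-104126933, - strand), the scavenging receptor, was highest among the gated classes in progenitor-like cells at 397, 440, 365 and 243 CPM, with Cd40-/- RANKL-Ab the lowest. Cells that passed no gate held 27.2, 209, 110 and 430 CPM, above the progenitor-like level in Cd40-/- RANKL-Ab. The progenitor marker list was drawn up knowing the genes that the study named for a subcluster of these samples, so it is not independent of them. Tuft-like cells were second at 67.7, 135, 70.4 and 199 CPM, with no overlap with the progenitor-like range. Then came cTEC-like cells at 40.4, 54.6, 73.7 and 51.6 CPM and basal mTEC-like cells at 9.42, 22.8, 23.8 and 43.4 CPM, each overlapping the class before it. The thinned share of cells with an Ackr4 UMI was 27.3%, 31.6%, 25.9% and 17.9% in progenitor-like cells (58.7%, 70.4%, 52.1% and 53.8% unthinned) and 0.327%, 2.02%, 1.64% and 1.13% in thymocyte-like cells. Among basal mTEC-like cells it was 0.792%, 1.61%, 2.07% and 3.42% (3.95%, 6.32%, 7.97% and 16.5% unthinned), below the thymocyte-like share in WT-RANKL-Ab. Thymocyte-like cells without any cTEC marker UMI gave 0%, 0%, 0.723% and 1.07%, below the basal mTEC-like share in every library.

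Within the progenitor-like class, Ackr4 and Ccl21a were high in different cells. Cells with at least 20 Ccl21a UMIs per 10000 made up 38.0%, 26.3%, 44.8% and 57.0% of the class. Ackr4 was 46.8, 131, 90.6 and 69.6 CPM in them and 564, 548, 594 and 461 CPM in the other cells. Cxcl12 followed Ackr4, at 143, 328, 212 and 284 CPM against 641, 770, 963 and 812 CPM. Ccl19 followed Ccl21a, at 131, 58.0, 78.3 and 172 CPM against 8.88, 4.32, 7.68 and 14.4 CPM. All 4 libraries showed each of these directions with intervals that did not overlap. An Ackr4 UMI was found in 70.1%, 76.9%, 65.7% and 58.5% of progenitor-like cells with a Cxcl12 UMI and in 35.1%, 38.7%, 24.4% and 27.9% of those without, which were also shallower in every library.

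**Figure D2:**
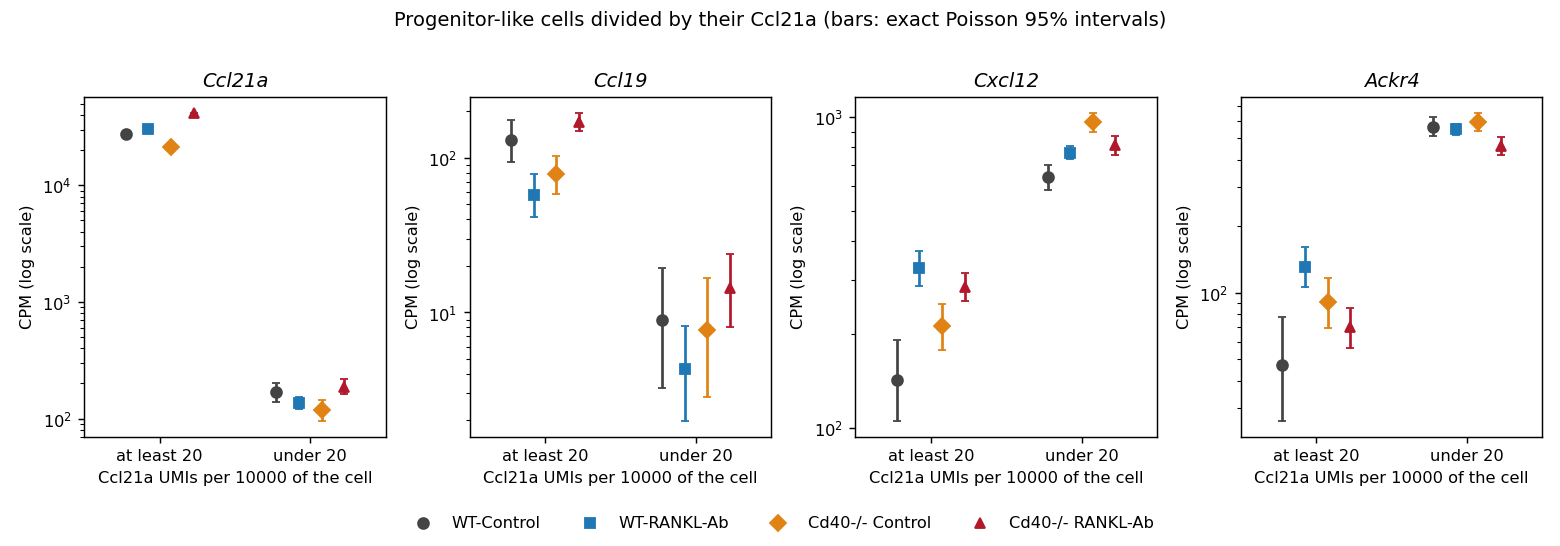
Levels of Ccl21a, Ccl19, Cxcl12 and Ackr4 (CPM, log scale) in progenitor-like cells with at least 20 or under 20 Ccl21a UMIs per 10000, with exact Poisson 95% intervals. The Ccl21a panel shows the variable that divided the cells. Ackr4 lay at 46.8 to 131 CPM in the first set and 461 to 594 CPM in the second.

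The question of the antibody in wild type was whether RANKL neutralization alone moved these genes within a class. A member was called when its level differed at least 2-fold, and when the pair of libraries held 20 or more of its UMIs in sum. Of 8 members in basal mTEC-like cells, 2 were past 2-fold, Ccl25 (log2 ratio 1.22, interval 1.14 to 1.31) and Ackr4 (1.27, 1.04 to 1.51), both higher, where 9.74% of all genes tested were past it. Ccl21a (0.06) and Ccl19 (0.06) were close to WT-Control. Thymocyte-like cells gave 0.34 for Ccl25, and their Ackr4 was 32.1 CPM against 6.20 CPM in WT-Control. The part of that background in the basal values was not tested. With gate cuts halved the Ccl25 ratio was 0.53 and the Ackr4 ratio 0.67, and with 10 CPM added to both levels the Ackr4 ratio was 0.76, and a basal gate set by Ccl21a alone gave 0.98 for Ackr4, so these calls were lost there. In cTEC-like cells 0 of 6 members tested were past 2-fold, against 8.09% of genes. In progenitor-like cells 1 of 6 was, Ccl19 at -1.41 (upper limit -0.81), against 7.10% of genes, and that call held under every alternative that gave a value. It rested on 51 against 48 UMIs, and thymocyte-like cells gave -2.86 for Ccl19. The thinned share of progenitor-like cells with a Ccl19 UMI was 4.32% in WT-Control and 1.69% in WT-RANKL-Ab (17.3% and 8.21% unthinned). In thymocyte-like cells it was 8.85% and 1.51%, and the part of that background in the call was not tested.

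Aire mTEC-like cells held the most called members after the antibody, 5 of 8, all higher, where 6.61% of genes were: Ccl21a (1.70), Cxcl12 (1.53), Ccl17 (1.79), Ccl22 (1.37) and Ackr4 (1.73). Here 25.6% of all genes were past 2-fold, 1210 higher and 3472 lower. The intervals were 1.69 to 1.90 for Ccl17 and 1.23 to 1.83 for Cxcl12. The Ccl21a ratio was 0.82 when only cells that passed exactly 1 TEC gate were kept, and the Ackr4 ratio was 0.34 with 10 CPM added. Without the 5 cells that held most of a member's UMIs in each library, a setting chosen after seeing the data, Ccl17 was 0.10, Ccl22 0.59 and Ackr4 0.78, so these 3 calls rest on few cells. The 5 cells are a larger part of 404 cells than of 3100. Cxcl12 stayed past 2-fold under all alternatives that gave a value, while thymocyte-like cells gave 0.89 for Cxcl12 and 2.37 for Ackr4 in this comparison. Ackr4 rested on 15 against 49 UMIs. Its thinned share was 0.142% in WT-Control and 0.332% in WT-RANKL-Ab (1.13% and 2.48% unthinned), below the 0.327% and 2.02% of thymocyte-like cells. The Cxcl12 shares were also below that background. Thymocyte-like cells without any cTEC marker UMI gave 0% and 0.265% for Cxcl12 and 0% and 0% for Ackr4, below the Aire mTEC-like shares. Because these backgrounds differ, neither the Cxcl12 nor the Ackr4 call is read as expression or as a difference.

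CD40 loss alone was compared with the same WT-Control library. Basal mTEC-like cells had 3 of 8 members past 2-fold, against 10.5% of genes: Ccl25 (1.16, 1.06 to 1.26) and Ackr4 (1.33, 1.07 to 1.60) were higher and Ccl22, with 4 against 68 UMIs, was lower (-3.12, -5.04 to -1.70). Thymocyte-like cells gave 0.97 for Ccl25, and their Ackr4 was 23.9 CPM against 6.20 CPM in WT-Control. The part of that background in the basal values was not tested. With 10 CPM added the Ccl22 ratio was -0.34 and the Ackr4 ratio 0.80, and Ccl25 was 0.98 with TMM scaling and 0.97 with gate cuts halved. The thinned basal share for Ccl22 was 0.283% in WT-Control and 0.0202% in Cd40-/- Control (1.31% and 0.206% unthinned). Both were below the 2.35% and 0.0737% of thymocyte-like cells, so the Ccl22 value is not read as a loss. In cTEC-like cells 2 of 6 members were past 2-fold, against 12.6% of genes. They were the CCR7 ligands, Ccl21a (-1.71, -1.77 to -1.66) and Ccl19 (-1.20, -1.85 to -0.53), both lower. In WT-Control the top 5 cells held 60.8% of the Ccl21a UMIs of this class, and without the top 5 cells of each library the ratios were -0.98 for Ccl21a and -0.97 for Ccl19. The thinned share of cTEC-like cells with a Ccl21a UMI was 33.0% in WT-Control and 17.7% in Cd40-/- Control (65.1% and 36.6% unthinned), beside 29.5% and 12.2% of thymocyte-like cells. Thymocyte-like cells gave log2 ratios of -2.30 for Ccl21a and -3.18 for Ccl19 in this comparison, and the part of that background in the cTEC-like values was not tested. Ccl19 was also -0.82 with 10 CPM added and -0.75 in cells that passed exactly 1 TEC gate. In progenitor-like cells 0 of 6 were past 2-fold, against 11.8% of genes. In Aire mTEC-like cells 3 of 8 were, against 9.60% of genes, with Cxcl12 (1.71, 1.54 to 1.89) and Ackr4 (1.20, 0.61 to 1.79) higher and Ccl22 (-1.11, -1.25 to -0.97) lower. Of these Cxcl12 stayed past 2-fold under every alternative that gave a value, beside 1.34 in thymocyte-like cells, while with 10 CPM added Ackr4 was 0.20 and Ccl22 was -0.90. Ackr4 was also 0.89 as a mean over cells, and Ccl22 -0.79 with gate cuts doubled. The thinned shares of Aire mTEC-like cells with a Cxcl12 or Ackr4 UMI were below those of thymocyte-like cells in both libraries. Against thymocyte-like cells without any cTEC marker UMI, they were above in WT-Control and below in Cd40-/- Control. The Cxcl12 and Ackr4 calls of this class are therefore not read as expression or as a difference.

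With both the antibody and CD40 loss, 5 of 8 members were past 2-fold in basal mTEC-like cells, against 17.8% of genes. Ccl25 (1.89, 1.80 to 1.99), Cxcl12 (1.58, 1.49 to 1.68) and Ackr4 (2.20, 1.95 to 2.46) were higher. Ccl17 was at least 8.56-fold lower and Ccl22 at least 7.56-fold lower, with the floor set at 3 counts in the library without a UMI, from 77 and 68 UMIs in WT-Control. The exact upper limits were wider, at log2 ratios of -2.76 and -2.58. In WT-Control the thinned basal share was 0.244% for Ccl17 and 0.283% for Ccl22 (1.06% and 1.31% unthinned). Both were below the 1.53% and 2.35% of thymocyte-like cells, which also held no UMI of either gene in Cd40-/- RANKL-Ab. The Ccl17 and Ccl22 values are therefore not read as a loss in basal mTEC-like cells. The Cxcl12 and Ackr4 calls held under all alternatives that gave a value. Thymocyte-like cells gave 1.34 for Cxcl12 and 0.67 for Ccl25 in this comparison. Their Ackr4 was 24.7 CPM against 6.20 CPM in WT-Control, and the part of that background in the basal values was not tested. Ccl25 was 0.90 with gate cuts halved, and Ccl17 and Ccl22 were -0.44 and -0.39 with 10 CPM added. Ccl21a was 0.54 (0.54 to 0.55), short of 2-fold. In cTEC-like cells 0 of 6 members were past 2-fold, against 9.68% of genes. In progenitor-like cells Ccl21a (1.37, 1.34 to 1.41) and Ccl19 (1.09, 0.63 to 1.57) were higher, 2 of 6 against 8.51% of genes. With gate cuts halved these ratios were 0.44 and 0.24. Ccl21a was 0.63 in cells that passed exactly 1 TEC gate, and Ccl19 was 0.90 as a mean over cells, 0.95 with 10 CPM added and 0.88 without cells that held a thymocyte marker. The share of progenitor-like cells with at least 20 Ccl21a UMIs per 10000 was 57.0% against 38.0% in WT-Control. The share that also passed the basal mTEC gate was 56.7% against 39.3%.

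**Figure D3:**
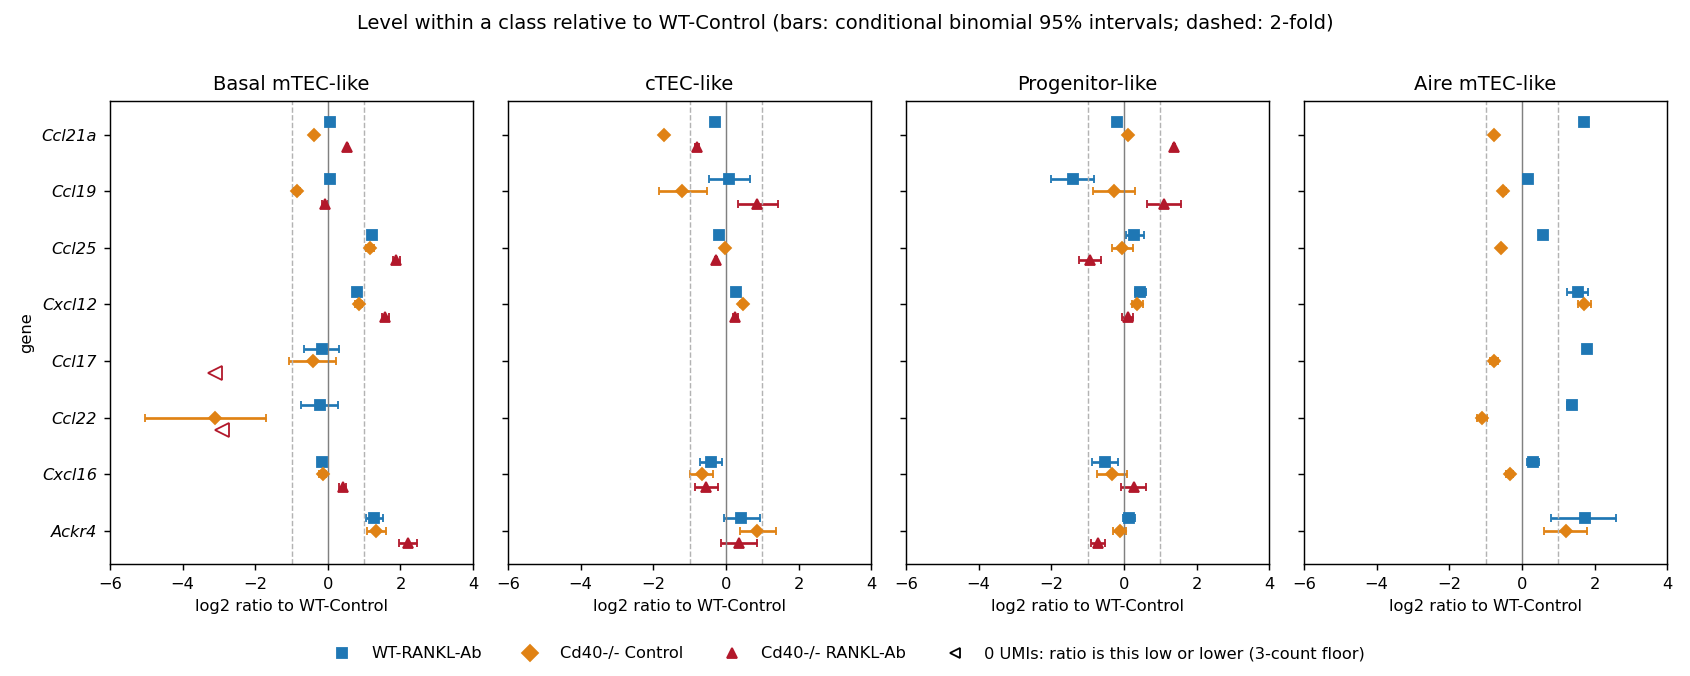
log2 ratio of each member's level to WT-Control within 4 classes, for the other 3 libraries, with conditional binomial 95% intervals. Dashed lines mark 2-fold, and open triangles mark ratios that are that low or lower because no UMI was found. In basal mTEC-like cells Ccl25, Cxcl12 and Ackr4 lie to the right of 0 in all 3 libraries.

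The antibody in Cd40-/- mice was compared with Cd40-/- Control. Basal mTEC-like cells had 1 of 7 members past 2-fold, Ccl17 at least 6.50-fold lower by the 3-count floor from 30 UMIs (exact upper limit of the log2 ratio -2.31, and -0.34 with 10 CPM added), against 13.8% of genes. Ccl21a (0.93), Ackr4 (0.87), Ccl19 (0.77), Ccl25 (0.74) and Cxcl12 (0.73) were all short of 2-fold. In cTEC-like cells 1 of 6 was past it, Ccl19 (2.06, 1.61 to 2.54) higher, against 4.41% of genes. In progenitor-like cells Ccl21a (1.26) and Ccl19 (1.36) were higher, 2 of 6 against 7.36% of genes. Keeping only cells that passed exactly 1 TEC gate put Ccl21a of progenitor-like cells at 0.88 and Ccl19 of cTEC-like cells at 0.94, and halved gate cuts put Ccl19 of progenitor-like cells at 0.96.

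Levels over all cells of a library mix the level in each class with the share of each class. Cxcl12 was 76.0, 460, 425 and 965 CPM over all cells. With class shares held at those of WT-Control its log2 ratio was 1.25, 1.10 and 1.90 in the other 3 libraries. With class levels held instead it was 2.01, 1.66 and 2.95. Ackr4 was 14.0, 72.6, 35.8 and 105 CPM over all cells, with ratios of 1.53, 0.85 and 2.19 at fixed shares and 1.55, 0.60 and 2.27 at fixed levels. Ccl25 was 686, 1451, 1657 and 2918 CPM, and for Cd40-/- Control its ratio was -0.15 at fixed shares and 1.17 at fixed levels. Ccl21a was 7506, 15059, 4549 and 18273 CPM. For Cd40-/- RANKL-Ab, ratios at fixed shares give its 9 Aire mTEC-like cells the weight of this class in WT-Control. Those 9 cells held 342 Ccl25, 7 Cxcl12 and 0 Ackr4 UMIs. The fixed-share values of that library therefore rest in part on a class with too few cells to compare.

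The CCR4 ligands had opposite directions by the same measure in WT-RANKL-Ab. Over all cells Ccl17 was 44.8 CPM in WT-Control and 23.6 CPM in WT-RANKL-Ab. Its log2 ratio was 1.39 at fixed class shares, which rests on the few Aire mTEC-like cells named above, and -1.25 at fixed class levels. For Ccl22 these were 36.5 and 21.9 CPM, 1.29 and -1.41. Aire mTEC-like cells were 30.3% of cells in WT-Control and 5.64% in WT-RANKL-Ab. The share of cells in a class can also be set by the sort and by cell recovery, and their part was not tested.

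**Figure D4:**
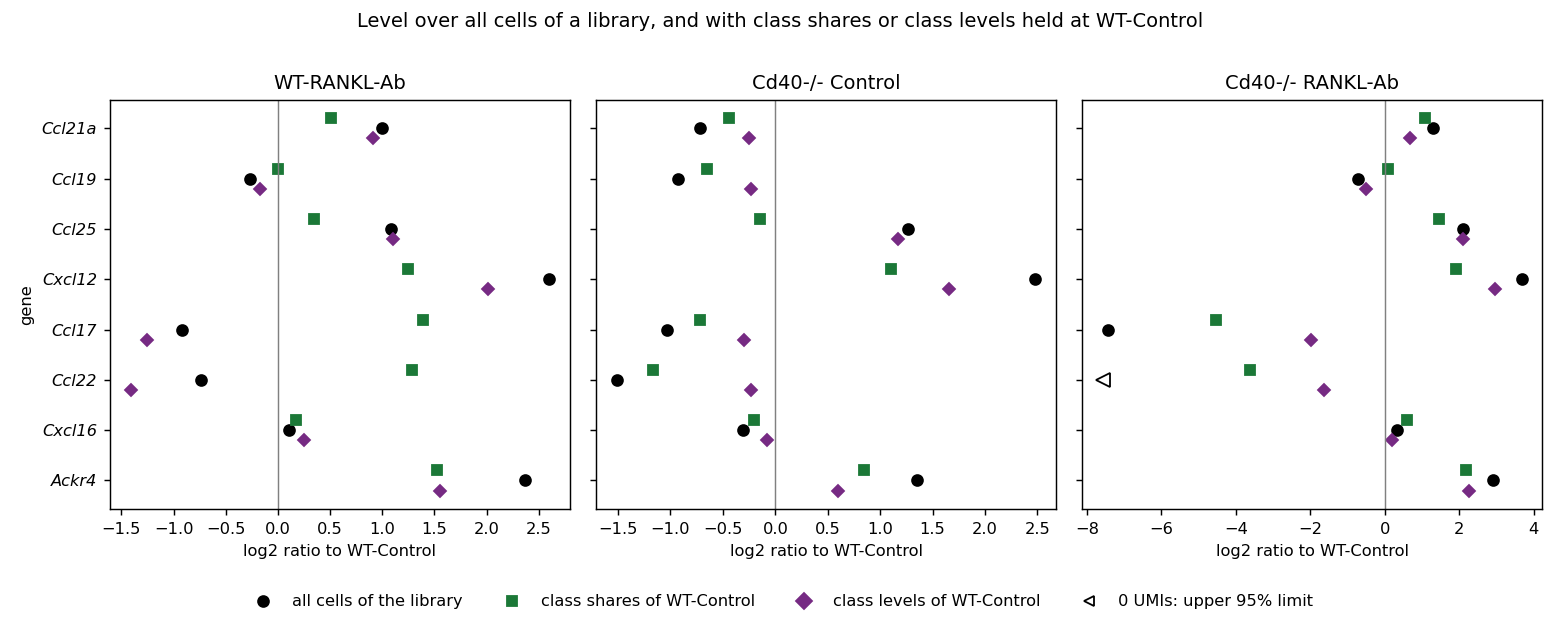
log2 ratio to WT-Control of each member over all cells of a library (circles), with the class shares of WT-Control (squares) and with the class levels of WT-Control (diamonds). Classes without cells in Cd40-/- RANKL-Ab took the WT-Control level, so its squares for Ccl17 and Ccl22 rest on borrowed values. All squares of that library give its 9 Aire mTEC-like cells the weight of this class in WT-Control. In WT-RANKL-Ab the squares and diamonds of Ccl17 and Ccl22 lie on opposite sides of 0.

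The share of each member's UMIs by class shows the same data by source. Ackr4 came from progenitor-like cells for 29.6%, 35.0%, 22.1% and 28.5% of its UMIs and from cells that passed no gate for 16.3%, 21.9%, 36.4% and 38.6%. Tuft-like cells gave 24.0% of the Ackr4 UMIs of WT-Control and 4.39% of those of Cd40-/- RANKL-Ab. Ccl19 came from Aire mTEC-like cells for 47.2% in WT-Control and from basal mTEC-like cells for 78.0% in WT-RANKL-Ab.

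**Figure D5:**
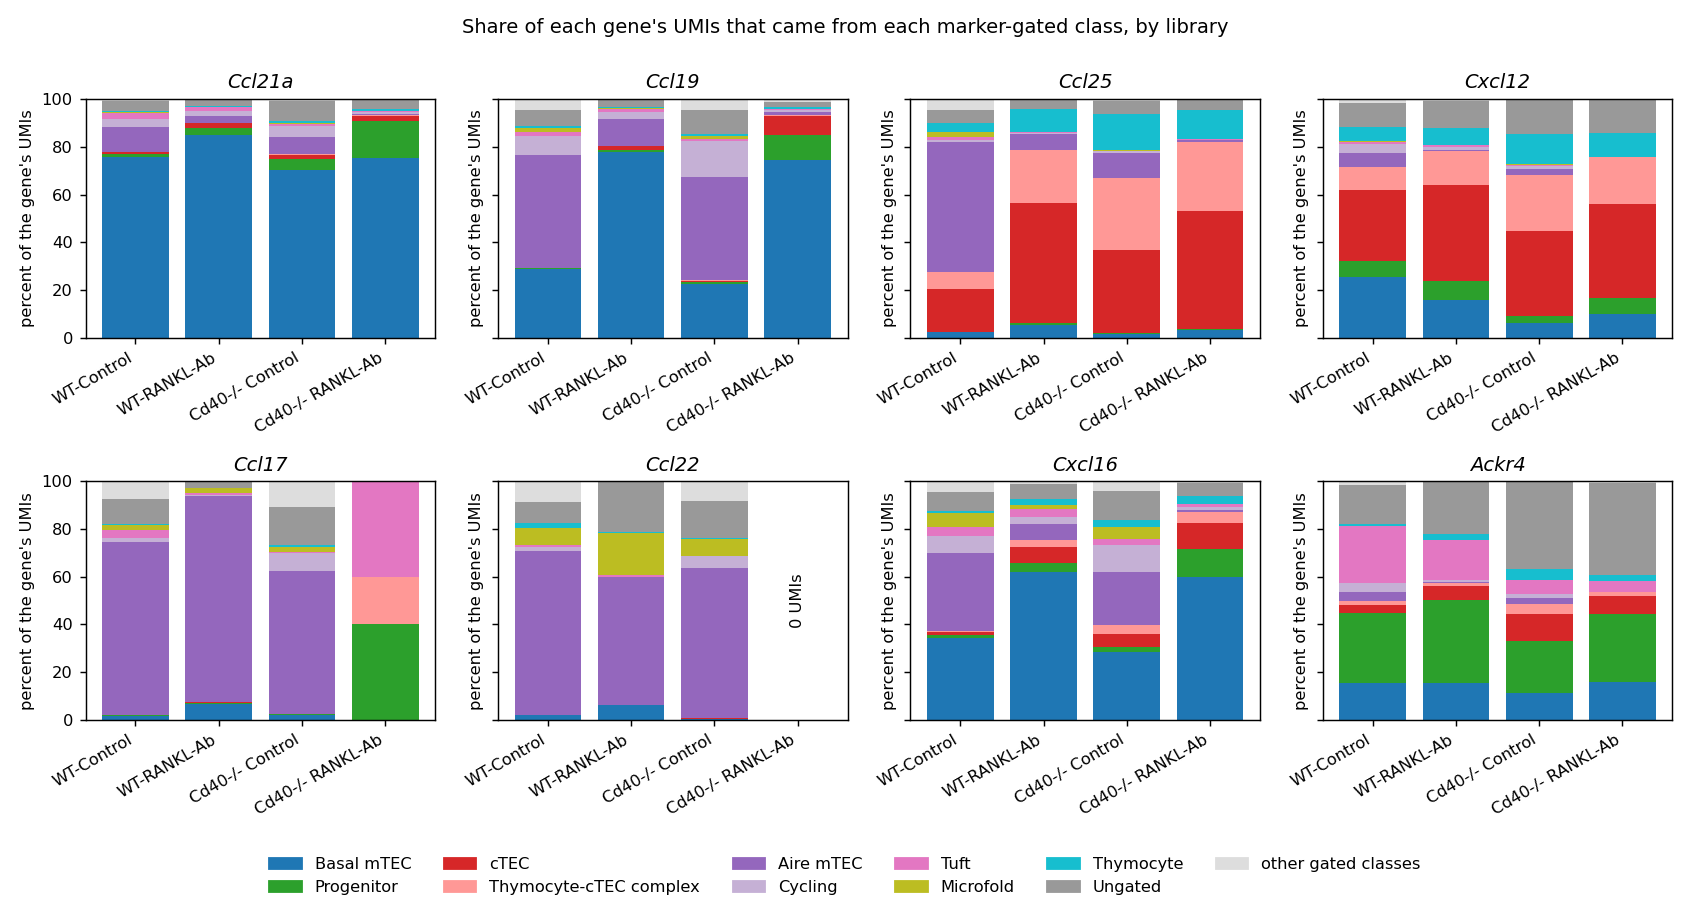
Percent of each member's UMIs that came from each marker-gated class, for the 4 libraries (bars add to 100). Ccl22 had no UMI in Cd40-/- RANKL-Ab, and Ccl17 had 5 there. Basal mTEC-like cells gave 70.3% to 84.8% of Ccl21a UMIs.

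Genes whose level was most like that of a member over 39 sums of a class in a library were named by Pearson's r of log2(CPM + 10), as a description, because the points share libraries, depth and the gates. For Ccl21a they were Tagln (r = 0.951) and Lrrc17 (0.921), with the near copy Gm21541 at 0.920. For Ccl19 they were CR974586.5 (0.944), Serpina3g (0.929) and Rgs17 (0.922). For Ccl25 they were Tbata (0.965), itself a cTEC gate marker, Slc22a7 (0.963) and Ufsp1 (0.956). For Cxcl12 they were Kcnk2 (0.982), P4ha3 (0.973) and Scarf2 (0.973). For Ackr4 they were Gnai1 (0.959), Lrpap1 (0.889) and Eid1 (0.888). Ccl17 was most like Il12a (0.911), Iglc3 (0.908) and Cd86 (0.907), the last an Aire mTEC gate marker. Ccl22 was most like Slamf7 (0.937), Sec1 (0.891) and Uts2b (0.885), and Cxcl16 most like Bcl3 (0.833), Filip1l (0.770) and Clu (0.765).

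Among 50 other genes of the chemokine system, the antibody in wild type left 0 of 37 tested genes past 2-fold higher and 14 lower in basal mTEC-like cells, where 3.78% of all genes tested were higher and 5.96% lower. Ligands made up 13 of the 14, among them the eosinophil attractant Ccl11 (928 CPM in WT-Control, 149 CPM in WT-RANKL-Ab), Ccl8 (50.2 and 5.43 CPM) and the CCR6 ligand Ccl20 (20.1 and 3.93 CPM). The median log2 ratio of the 37 was -0.69, beside 0.15 over all genes tested. None of the 8 members was past 2-fold lower in that comparison. With CD40 loss alone 5 of 38 were higher and 3 lower (6.86% and 3.61% of all genes), and Ccl8 was 112 CPM. With both, 3 of 36 were higher and 17 lower (6.90% and 10.9% of all genes), with Ccl8 at 0.138 CPM from 1 UMI, while Ackr3, an atypical receptor of CXCL12, was 4.69 CPM against 0.873 CPM in WT-Control. In Aire mTEC-like cells the antibody left 1 of 47 higher, Ccl5 (868 CPM in WT-Control and 1867 CPM in WT-RANKL-Ab), and 17 lower (6.61% and 19.0% of all genes), including the CXCR5 ligand Cxcl13 (178 and 10.5 CPM).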

How the data were processed

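Droplet single-cell RNA-seq was performed by the authors on 4 libraries, 1 per condition, and the deposited matrices hold raw UMI counts per gene and cell. The matrix headers name Cell Ranger 5.0.1 and the submitters' processing notes Cell Ranger 5.1, with mm10 as the build. The deposited counts were analysed with Python 3.11.15, numpy 2.4.6, scipy 1.17.1 and edgeR 4.0.16 (TMM factors only). Genes were kept when more than 5 deposited barcodes over all libraries held them. Barcodes were then kept when 200 or more of these genes were seen and mitochondrial UMIs did not exceed 25%. No doublet caller was run, and cells with thymocyte and cTEC markers were kept apart as complexes. Cells entered 1 of 17 gates by marker UMIs per 10000 with at least 2 markers. UMIs of a class were summed and divided by its total. Intervals were exact Poisson for levels and conditional binomial for ratios. Classes with at least 50 cells were compared. Coordinates are from GENCODE M21 (GRCm38). The members and lists were chosen with earlier results of these data known. Named genes were all 8 members, the 3 genes most like each member, and the other chemokine-system genes with the largest ratios past 2-fold and at least 50 UMIs. The class sums were tested on simulated data with known folds. The effects of 14 other settings, and of 5 more chosen after seeing the data, are given at the end. No column of other samples was in the files.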

Additional observations from a re-analysis of the deposited data

Results flagged for a closer look

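In 8 cases, within the 3 of the 4 compared classes that had enough cells in every library, the antibody's log2 ratio had opposite signs in wild-type and Cd40-/- mice with both counting intervals clear of 0. With 1 library per condition these differences were not tested. Members with enough UMIs in the Cd40-/- comparison numbered 7 in basal mTEC-like, 6 in cTEC-like and 6 in progenitor-like cells. The share of all genes that met the same sign rule was not computed, and intervals cleared 0 for ratios as small as -0.15. The 8 cases are therefore a description only. For Ccl21a the ratio in Cd40-/- minus that in wild type was 1.21 in cTEC-like cells (-0.29 in wild type, 0.92 in Cd40-/-) and 1.44 in progenitor-like cells (-0.18 and 1.26). For Ccl19 it was 2.77 in progenitor-like cells (-1.41 and 1.36). For Ccl25 it was -1.18 in progenitor-like cells (0.29 and -0.89). For Cxcl12 it was -0.48 in cTEC-like cells (0.27 and -0.21) and -0.71 in progenitor-like cells (0.45 and -0.26). For Cxcl16 it was 0.70 in basal mTEC-like cells (-0.15 and 0.55) and 1.11 in progenitor-like cells (-0.52 and 0.59). Of the 8, 5 were in progenitor-like cells, of those classes the one with the largest share of cells near its cut. Thymocyte-like cells gave -0.74 in wild type and 2.18 in Cd40-/- for Ccl21a, and -2.86 and -0.48 for Ccl19. They gave 0.34 and -0.30 for Ccl25, and 0.89 and -0.00 for Cxcl12. The part of that background in these differences was not tested.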

How the results depend on the processing

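Of 27 member values past 2-fold, 5 stayed past it in the same direction under every alternative that gave a value, and 0 changed direction. No alternative subtracted the level found in thymocyte-like cells. Members past 2-fold after CD40 loss alone numbered 8 as reported, 5 with gate cuts doubled and 3 with 10 CPM added. With the antibody and CD40 loss they numbered 7 as reported and 4 with 10 CPM added. Doubled cuts gave 16 of 28 values after CD40 loss alone, and of the 6 among them past 2-fold as reported 5 stayed past it. Halved cuts kept 4 of 7 with the antibody and CD40 loss. Leaving out the top 5 cells of each member in each class and library, chosen after seeing the data, kept 5 of 8 with the antibody in wild type, 6 of 8 after CD40 loss alone and 7 of 7 with both, and put Ackr4 of cTEC-like cells past 2-fold at 1.17, 1.69 and 1.04. Doubled cuts left too few cTEC-like and progenitor-like cells to compare, so that fewer values could be counted: 2 members in place of 5 had the same highest class of the 4 in all libraries, and 47 in place of 79 thinned shares lay above the thymocyte-like share. At fixed composition in WT-RANKL-Ab, Ccl17 was 1.39 and Ccl22 was 1.29, and with class shares of each library and levels of WT-Control, chosen after seeing the data, they were -1.25 and -1.41. Leaving out a replicate was not possible with 1 library per condition. No paired analysis was possible because each condition had 1 library and no result came from a test. Low counts limit Ccl17 and Ccl22 outside Aire mTEC-like cells.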

Other observations

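Cells that passed no gate included Ackr4-positive cells in every library, 56 of 1477 in WT-Control, 195 of 898 in WT-RANKL-Ab, 254 of 1687 in Cd40-/- Control and 149 of 238 in Cd40-/- RANKL-Ab. Their ungated class held Ackr4 at 27.2, 209, 110 and 430 CPM. Cxcl12 was 1439 CPM in 640 Ackr4-positive ungated cells and 145 CPM in 2849 ungated cells without an Ackr4 UMI. These sets did not include every one of the 4300 ungated cells. Between the same sets the progenitor gate marker Dcn was 709 against 93.3 CPM, and the cTEC gate marker Prss16 1296 against 185 CPM.

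Single cells carried a few high values of the CCR4 ligands. In neuroendocrine-like cells of WT-Control, 134 Ccl17 UMIs came from 2 of 34 cells, and 1 cell held 129 of them. In microfold-like cells of WT-RANKL-Ab, 188 Ccl22 UMIs came from 7 of 63 cells, and 1 cell held 111.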
